A study of Mus musculus with 9 samples.

Results

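The genes described here are 39 mouse genes of the transforming growth factor beta (TGF-beta) superfamily and its core signaling chain. They comprise 17 ligands, 12 receptors, 7 Smads and 3 extracellular modulators, which are the antagonists Fst and Nog and the latency protein Ltbp1. The rule that picks them uses gene names and no measured value, and they are 39 of the 27962 gene names on the array. Every probe annotated to one of them was taken, which gave 61 of 41174 probes.

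RNA came from mammary gland number 4 of dams on lactation day 2 (L2) and was read on Agilent arrays of the whole mouse genome in a single color, 1 for each of 4 WT and 5 hNAG-1 dams. The hNAG-1 dams carry a transgene for human NAG-1, the human form of GDF15, made to be expressed ubiquitously, and the WT dams lack it. The labels give C57BL/7 as the strain background of both genotypes and do not name the transgenic line of each dam. Values are scaled intensities, the deposited intensity of a probe after each array was brought to the same 75th percentile (818), and they carry no absolute unit. The question asked was which of these genes differed in mRNA level between the genotypes.

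In the TGF-beta superfamily, a dimeric ligand brings together type I and type II receptor kinases on the cell surface. The type I receptor then phosphorylates receptor-regulated Smads, which join the common Smad4, enter the nucleus and regulate genes. TGF-betas and activins act mainly through Smad2 and Smad3, and bone morphogenetic proteins (BMPs) and anti-Müllerian hormone through Smad1 and Smad5. Smad6 and Smad7 inhibit the chain, follistatin (Fst) and noggin (Nog) trap ligands outside the cell, and Ltbp1 holds TGF-beta in a latent complex. In the mammary gland TGF-beta is known to restrain ductal growth and to take part in involution, the regression of the gland when suckling stops. NAG-1 is itself a distant member of the superfamily, but its known receptor in the brain is Gfral with the co-receptor Ret rather than a receptor kinase of this family.

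The dams were spread over 3 slides, with WT 1 on slide 1, hNAG-1 1 to 4 on slide 2, and hNAG-1 5 beside WT 2 to 4 on slide 3, so genotype and slide could be separated within slide 3 only. The share of features well above background was 69.0% to 76.1% on the WT arrays, 59.8% to 69.7% on the hNAG-1 arrays of slide 2 and 73.3% on hNAG-1 5, and its part in the results was not tested. Markers of secretory epithelium, myoepithelium, fibroblasts, endothelium, adipocytes, lymphocytes and macrophages were each well above background on some array, and limma gave no marker an unadjusted p under 0.05. The 6 lymphocyte markers were all lower in hNAG-1, with a median log2 fold change of -1.16, and their part in the results was not tested. The summed intensity of these markers was 28721 on WT 2, against 1104 to 4920 on the other WT arrays and 804 to 4439 on the hNAG-1 arrays. The markers of adipocytes (6 of 6), myoepithelium (6 of 6) and secretory epithelium (7 of 7) all had log2 fold changes above 0, with median log2 fold changes of 0.35, 0.33 and 0.13. Of the fibroblast and endothelium markers 5 of 6 each lay above 0, with medians of 0.22 and 0.18. With slide as a block the medians were 0.15 for adipocytes, 0.18 for myoepithelium, 0.11 for secretory epithelium and 0.28 for fibroblasts. They were then -0.25 for endothelium, -0.70 for lymphocytes and -0.45 for macrophages (0.058 without the block). The 6 macrophage markers summed to 27248 on hNAG-1 4 and to 5323 to 15182 on the other arrays. The part of these lists was not tested either. In tissue RNA of this kind, fewer cells of a type and less RNA per cell cannot be told apart.

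**Figure D1:**
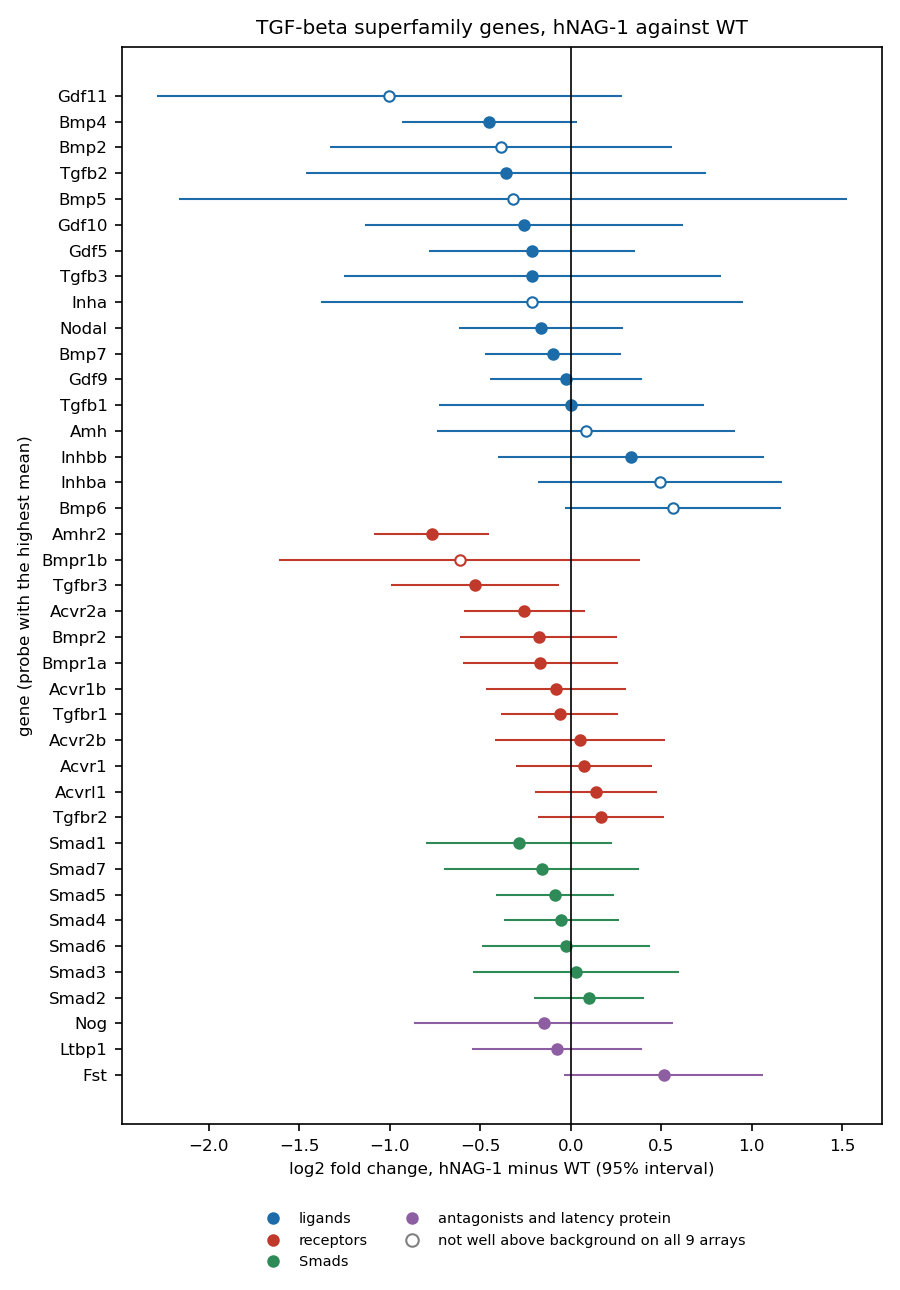
The log2 fold change of each of the 39 genes, hNAG-1 minus WT, is plotted along the horizontal axis as a point with its 95% interval from limma, colored by class, and open points were not well above background on all 9 arrays. Of all intervals, those of Amhr2 and Tgfbr3, both below 0, are the ones that leave out 0.

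The largest separation between the genotypes was that of a receptor gene, Amhr2, and not of the receptors as a class. Their median absolute log2 fold change was 0.167, beside 0.258 for ligands and 0.242 over all probes. The mRNA of Amhr2, the type II receptor of anti-Müllerian hormone, was lower in every hNAG-1 dam than in any WT dam, and that of Tgfbr3, the co-receptor betaglycan, was lower on average with overlap. No ligand, Smad or extracellular modulator reached an unadjusted p of 0.05 by its brightest probe, the probe with the highest mean log2 intensity, which stands for a gene from here on. In all, limma gave an unadjusted p under 0.05 for 2 of 39 genes, 0 higher and 2 lower in hNAG-1, where the same threshold took 5.8% of all gene names. The lower direction alone took 4.79% of all gene names and the higher direction 1.02%. Both directions followed the processing. Among the 39 genes, quantile normalization and median scaling each gave 1 lower and 3 higher, normexp 1 lower and 2 higher, and slide 3 alone 0 lower and 2 higher. Of all probes with an unadjusted p under 0.05, 79.5% were lower here, 42.5% with quantile normalization, 47.4% with normexp, 27.6% with median scaling and 9.19% with slide as a block. After Benjamini-Hochberg adjustment over all probes 0 of the 39 genes were left, with a lowest adjusted p of 0.661 from limma, and 0.00243% of all probes passed. The genotypes did not overlap for 1 of the 39 genes, against 1.25% of all gene names, 0.697% with hNAG-1 the lower. Over all 61 probes, 3 had an unadjusted p under 0.05, against 5.6% of all probes, and 1 did not overlap, against 1.35%.

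The precision differed between genes. For 31 of the 39 genes the brightest probe was well above background on all 9 arrays, for 7 on some arrays, and for Amh on none. The 95% interval of the log2 fold change lay within 1 log2 unit on either side of 0 for 26 genes and within a 1.5-fold change on either side for 13. Where an interval was wider than that, a change of 1.5-fold was within the error of these arrays, so a high p there does not show equal levels.

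Amhr2 was measured by a single probe of 60 bases (A_51_P466221; build mm7, chr15:102440656-102440715, plus strand). The first 30 bases of this probe and of the Tgfbr3 probe (A_51_P255899; mm7, chr5:106286319-106286378, minus strand) are shown because the results turn on these probes. Both are written 5′ to 3′ as in the scanner files.
Amhr2: atgagtagcttgtttgaactctctgtacag
Tgfbr3: cgtcagatttgtgcctgtctcgaacattct

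Amhr2 had scaled intensities of 252, 288, 305 and 234 on WT 1 to 4 and 156, 143, 150.1, 176 and 165 on hNAG-1 1 to 5. The lowest WT value lies above the highest hNAG-1 value, and the 5 hNAG-1 values lie close together. The means were 269.7 ± 32.3 in WT dams (SD, n = 4) and 158 ± 13.0 in hNAG-1 dams (SD, n = 5), a log2 fold change of -0.77 (95% interval -1.08 to -0.45; exact permutation test, two-sided p = 0.00794, the smallest that 4 arrays against 5 allow). In limma the unadjusted p was 0.000356, the sixth lowest of all 41174 probes, and the adjusted p was 0.661. Within slide 3 the only hNAG-1 array read 165, below the WT arrays of that slide at 234 to 305, and with slide as a block the log2 fold change was -0.73 (unadjusted p under 0.05 and adjusted p = 0.491 in limma). The log2 fold change without WT 2, the array with the high lymphocyte markers, was -0.73.

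Amh, the ligand of Amhr2 and best known from the fetal testis and the ovary, was at background on all 9 arrays, with no array well above it. Its probe read 8.65 to 13.4 in WT and 6.31 to 22.3 in hNAG-1 dams, so the ligand's mRNA was not detectable in either genotype. The type I receptors that pair with Amhr2 are Acvr1, Bmpr1a and Bmpr1b. Acvr1 and Bmpr1a showed no such separation. Acvr1 had a log2 fold change of 0.073 (95% interval -0.30 to 0.45) and Bmpr1a one of -0.17 (95% interval -0.59 to 0.26), and both overlapped between genotypes. For Bmpr1b only 1 array, of an hNAG-1 dam, was well above background, so no fold change is given for it.

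**Figure D2:**
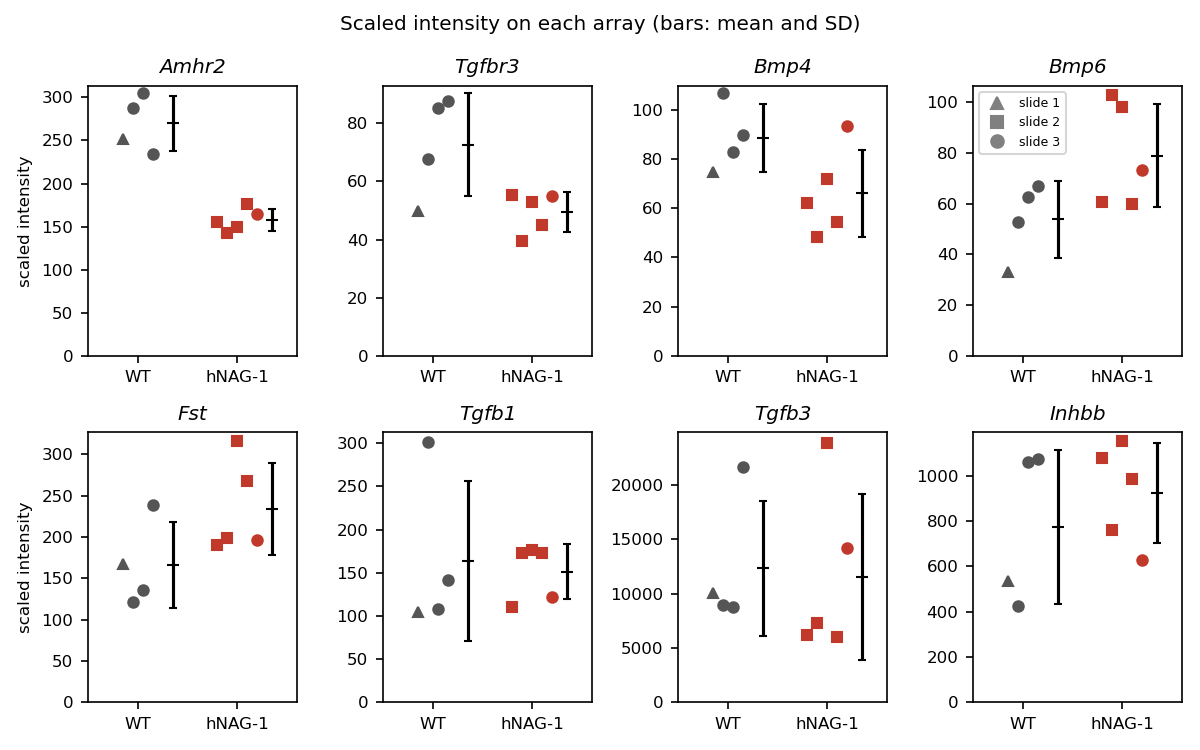
Scaled intensity (vertical axis, from 0) of 8 genes on each array, WT in gray and hNAG-1 in red, with symbols for the slides and bars for mean and SD. Amhr2 shows no overlap, with WT from 234 to 305 and hNAG-1 from 143 to 176, and the other 7 genes overlap.

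Tgfbr3, or betaglycan, is a type III receptor that presents TGF-beta2 to the signaling receptors and serves as a co-receptor of inhibin. Tgfbr3 had scaled intensities of 49.6, 67.7, 85.2 and 87.7 on WT 1 to 4 and 55.3, 39.6, 52.8, 45.0 and 54.9 on hNAG-1 1 to 5. WT 3 and WT 4 were the highest arrays, and WT 1 lay within the range of the hNAG-1 arrays. This gave a log2 fold change of -0.53 (95% interval -0.99 to -0.064; exact permutation test, two-sided p = 0.0556). It was -0.54 with slide as a block and -0.42 without WT 4. The unadjusted p in limma was over 0.05 in both cases. It was also over 0.05 without WT 3, hNAG-1 2 or hNAG-1 4, with log2 fold changes of -0.44, -0.45 and -0.50. The scaling mattered as well, since the p was over 0.05 with normexp (-0.17), quantile normalization (-0.27), median scaling (-0.31) and no scaling (-0.67).

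The 2 signaling receptors of TGF-beta had narrow intervals around 0. Tgfbr2, the type II receptor, had scaled intensities of 10669.7, 11343, 11638 and 12426 on WT 1 to 4 and 11831, 14827, 15709, 11732 and 11097 on hNAG-1 1 to 5. Only hNAG-1 2 and hNAG-1 3 stood above the WT range, and the log2 fold change of 0.17 (95% interval -0.18 to 0.51; exact permutation test, two-sided p = 0.278) was above 0. It turned to -0.088 with slide as a block. Tgfbr1, the type I receptor, ranged from 1074 to 1375 in WT and 1043 to 1347 in hNAG-1 dams, a log2 fold change of -0.061 (95% interval -0.38 to 0.26). Both intervals lie within a 1.5-fold change on either side of 0.

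Among the activin and BMP receptors well above background on all arrays, the log2 fold changes by the brightest probe lay from -0.26 to 0.14. The 95% intervals of Bmpr1a, Bmpr2 and Acvr2a reached past a 1.5-fold fall. Acvr2a, a type II receptor for activins, was 136 ± 15.1 in WT dams (SD, n = 4) and 114 ± 12.9 in hNAG-1 dams (SD, n = 5), a log2 fold change of -0.26 (exact permutation test, two-sided p = 0.0556), with 3 hNAG-1 arrays below every WT array. Bmpr2, the type II receptor for BMPs, gave -0.18 (95% interval -0.61 to 0.26) by its brightest probe, and its other probes gave -0.11 and -0.076. The 3 Bmpr2 probes thus had 1 direction. Acvr2b gave 0.052, and Acvrl1, a type I receptor best known from endothelium, gave 0.14 (95% interval -0.20 to 0.48). Across the 12 receptors the median log2 fold change was -0.12, with 4 higher and 8 lower, but it was 0.092 when arrays were scaled to their medians. The median over all probes was -0.018 here and 0.20 with median scaling.

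**Figure D3:**
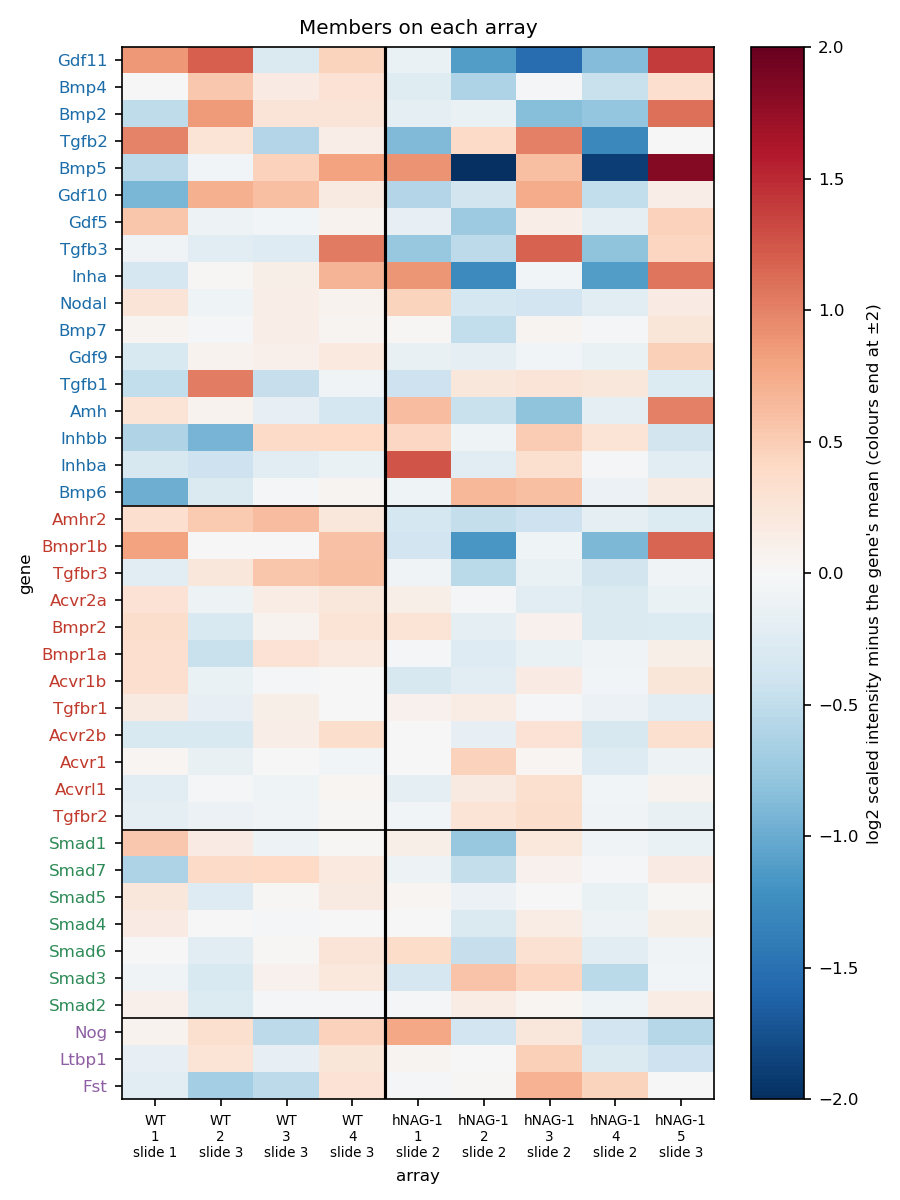
Each row is a gene and each column an array with its slide, and the color gives log2 scaled intensity minus the gene's mean over the 9 arrays, ending at 2 log2 units on either side. Amhr2 is above its mean on all 4 WT arrays and below it on all 5 hNAG-1 arrays, while many ligands differ more within a genotype than between genotypes.

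By description, with no test, the ligands varied more between arrays of a genotype than the receptors and Smads. This spread holds dam, labeling, hybridization and slide together. Over genes well above background on all arrays, the median within-genotype SD of log2 intensity was 0.457 for 10 ligands, 0.209 for 11 receptors and 0.296 for 7 Smads, beside 0.284 for all 16068 gene names of that kind. The ligands' median log2 fold change was -0.21, with 5 higher and 12 lower, and it was 0.25 with slide as a block, where the median over all probes was 0.19. It was -0.024 with quantile normalization, 0.0069 with normexp and 0.0034 with median scaling, so its sign turned with the processing. None of the 17 ligands had an unadjusted p under 0.05.

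Levels of the 3 TGF-betas differed widely between arrays of the same genotype. Tgfb1 had scaled intensities of 105, 301, 108 and 141 on WT 1 to 4 and 111, 173, 177, 173 and 122 on hNAG-1 1 to 5. WT 2 stood above every other array, and this is the array with the highest lymphocyte markers, whose part in the Tgfb1 level was not tested. Its log2 fold change was 0.0021 (95% interval -0.73 to 0.73) with all arrays and 0.34 without WT 2. Tgfb1 was printed in 10 spots on each array, whose log2 values had a median SD of 0.0904 within an array, against 0.709 over the WT arrays and 0.322 over the hNAG-1 arrays. The SD over arrays also holds labeling, hybridization and slide.

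Tgfb3, the form known to rise in the gland at involution, had scaled intensities of 10014, 8970.2, 8779 and 21617 on WT 1 to 4 and 6222, 7323, 23808, 6053 and 14188 on hNAG-1 1 to 5. WT 4 and hNAG-1 3 held the highest values of their genotypes, and the same 2 arrays were highest for the TGF-beta target Ctgf, at 36416 and 38178. This match was not particular to Ctgf. Both arrays were also highest in their genotypes for the summed markers of myoepithelium (136461 and 149169) and endothelium (9671 and 11748). The same held for the mean score over the 31 genes detected throughout (0.20 and 0.20). A link between Tgfb3 and Ctgf was not tested. Tgfb3 had a log2 fold change of -0.21 (95% interval -1.25 to 0.83; exact permutation test, two-sided p = 0.69), or 0.094 without WT 4. Tgfb2 ranged from 427 to 1275 in WT and 263 to 1286 in hNAG-1 dams, a log2 fold change of -0.36 (95% interval -1.46 to 0.75).

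Of the BMPs, Bmp4 was the lower and Bmp6 the higher in hNAG-1, neither past the threshold. Bmp4, a regulator of epithelial and stromal patterning, had scaled intensities of 74.5, 107, 82.9 and 89.9 on WT 1 to 4 and 62.2, 48.3, 71.8, 54.5 and 93.3 on hNAG-1 1 to 5. The hNAG-1 arrays of slide 2 all lay below every WT array, whereas hNAG-1 5 on slide 3 lay inside the WT range. The log2 fold change was -0.45 (95% interval -0.93 to 0.034; exact permutation test, two-sided p = 0.0873) and it was 0.010 with slide as a block, so genotype and slide cannot be told apart for Bmp4.

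Bmp6 had scaled intensities of 33.0, 52.7, 62.8 and 67.0 on WT 1 to 4 and 60.8, 103, 98.0, 59.8 and 73.5 on hNAG-1 1 to 5, and 3 hNAG-1 arrays lay above every WT array. WT 1 was the lowest and was not well above background. Its log2 fold change was 0.56 (95% interval -0.033 to 1.16; exact permutation test, two-sided p = 0.0873), 0.28 within slides as blocks, and 0.78 after median scaling, where the unadjusted p fell under 0.05 in limma. It was 0.35 without WT 1, 0.32 with normexp (unadjusted p also under 0.05 in limma) and 0.17 as the mean over both probes of the gene. Bmp7 had a log2 fold change of -0.097 (95% interval -0.47 to 0.28), and a second Bmp7 probe gave -0.027.

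Bmp2 and Bmp5 were near background. Bmp2 was well above background on 1 WT and 1 hNAG-1 array, and its 10 spots had a median SD of 0.778 on the log2 scale within an array, as large as the 0.784 over the hNAG-1 arrays. Bmp7 and Bmp4, also printed in 10 spots, had median SDs of 0.051 and 0.184 within an array. The brightest Bmp5 probe was well above background on 3 WT and 3 hNAG-1 arrays and ranged from 19.1 to 47.9 in WT and 6.14 to 98.1 in hNAG-1 dams. A second Bmp5 probe had an unadjusted p under 0.05 in limma but was not well above background on any array, so it gives no level.

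Among the growth and differentiation factors, all 4 log2 fold changes were below 0 and none passed the threshold, and with slide as a block 3 of the 4 were above 0. Gdf5, a ligand best known from joint formation, was 951 ± 218 in WT dams (SD, n = 4) and 835 ± 248 in hNAG-1 dams (SD, n = 5), a log2 fold change of -0.21 (95% interval -0.78 to 0.36). Gdf10 gave -0.26 (95% interval -1.14 to 0.62) and Gdf9, known as an oocyte factor, -0.026 (95% interval -0.44 to 0.39). Gdf11 was well above background on 1 array of each genotype, and its 95% interval of -2.29 to 0.28 had the widest reach below 0 among the ligands. Nodal, a ligand of early embryonic patterning, ranged from 159.5 to 201 in WT and 129 to 229 in hNAG-1 dams, a log2 fold change of -0.17 (95% interval -0.62 to 0.29).

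None of the 3 activin and inhibin subunits had an unadjusted p under 0.05 in limma. Inhbb, the activin beta B subunit, had scaled intensities of 535, 427, 1061 and 1071 on WT 1 to 4 and 1079, 760.5, 1153, 983 and 628 on hNAG-1 1 to 5. WT 3 and WT 4 lay among the upper hNAG-1 arrays and WT 1 and WT 2 below all of them, so the values within WT differed by more than the genotypes did. Its log2 fold change was 0.33 (95% interval -0.40 to 1.07; exact permutation test, two-sided p = 0.349) and -0.32 with slide as a block. Inhba, the beta A subunit, was well above background on 2 WT and 2 hNAG-1 arrays, with hNAG-1 1 at 71.4 and every other array at 22.4 to 37.4. Inha, the subunit that makes an inhibin rather than an activin, was well above background on 1 WT and 2 hNAG-1 arrays.

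The Smads carry the signal of the receptors above or, as Smad6 and Smad7, inhibit it. Their median absolute log2 fold change was 0.0855, beside 0.148 for the 3 modulators, 0.167 for receptors, 0.258 for ligands and 0.242 over all probes. The order of the classes turned with the setting and with single arrays. With median scaling the medians were 0.17 for ligands, 0.28 for receptors, 0.17 for Smads and 0.14 for modulators, and without hNAG-1 4 they were 0.14, 0.17, 0.13 and 0.068. The modulators also lay below the Smads with normexp, with the replicate block and without WT 4 or hNAG-1 5. All 7 Smads were well above background on all 9 arrays, and limma gave none of them an unadjusted p under 0.05. Their median log2 fold change was -0.051, with 2 higher and 5 lower, and it was 0.17 with median scaling.

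Smad1 belongs to the BMP branch. Smad1 had scaled intensities of 4782, 3689, 3043 and 3333 on WT 1 to 4 and 3566, 1935, 3786, 3136 and 2985 on hNAG-1 1 to 5. WT 1 was the highest array and hNAG-1 2 the lowest, and the log2 fold change was -0.28 (95% interval -0.80 to 0.23; exact permutation test, two-sided p = 0.302). Without hNAG-1 2 it was -0.13, and without WT 1 -0.16, where Smad7 lay lower, at -0.39. A second Smad1 probe gave -0.061, and Smad5, of the same branch, gave -0.085 (95% interval -0.41 to 0.24).

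Smad2 belongs to the TGF-beta and activin branch. Smad2 had scaled intensities of 1394, 1076, 1283 and 1268 on WT 1 to 4 and 1272, 1447, 1338, 1227 and 1434 on hNAG-1 1 to 5, with 2 hNAG-1 arrays above every WT array. That is a log2 fold change of 0.10 (95% interval -0.20 to 0.41; exact permutation test, two-sided p = 0.302), and -0.046 without scaling. Smad4, the common partner, ranged from 5435 to 6238 in WT and 4573 to 6197 in hNAG-1 dams, a log2 fold change of -0.051 (95% interval -0.37 to 0.27). Smad3, of the same branch as Smad2, ranged from 959 to 1371 in WT and 816 to 1747 in hNAG-1 dams, a log2 fold change of 0.029 (95% interval -0.54 to 0.60). The inhibitory Smad6 and Smad7 gave -0.026 (95% interval -0.49 to 0.44) and -0.16 (95% interval -0.70 to 0.38), and these genes are themselves known targets of the pathway.

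Of the extracellular modulators, Fst leaned higher in hNAG-1, the directions of Nog and Ltbp1 turned with the scaling, and 0 of 3 had an unadjusted p under 0.05. Fst, which binds activins, had scaled intensities of 168, 122, 136 and 238 on WT 1 to 4 and 191, 198, 316, 267 and 197 on hNAG-1 1 to 5. Only hNAG-1 3 and hNAG-1 4 exceeded the highest WT array, WT 4, and the log2 fold change was 0.51 (95% interval -0.037 to 1.06; exact permutation test, two-sided p = 0.0952). It was 0.32 with slide as a block, and above 0 under all 20 alternatives, from 0.32 to 0.73, with an unadjusted p under 0.05 in 4 of them.

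Nog, an antagonist of BMPs, had scaled intensities of 95.4, 113, 63.2 and 125 on WT 1 to 4 and 155, 69.8, 107, 69.4 and 60.9 on hNAG-1 1 to 5. Its highest value was on hNAG-1 1 and its lowest on hNAG-1 5, and the log2 fold change was -0.15 (95% interval -0.86 to 0.57; exact permutation test, two-sided p = 0.675), with 0.068 under median scaling. Ltbp1 ranged from 60.3 to 81.7 in WT and 51.2 to 94.1 in hNAG-1 dams, a log2 fold change of -0.076 (95% interval -0.55 to 0.40). That of Ltbp1 was above 0 with normexp (0.078), quantile normalization (0.12), median scaling (0.14) and without hNAG-1 5 (0.018), so it has no settled direction. With slide as a block Nog gave -0.66 and Ltbp1 -0.52, neither with an unadjusted p under 0.05 in limma.

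**Figure D4:**
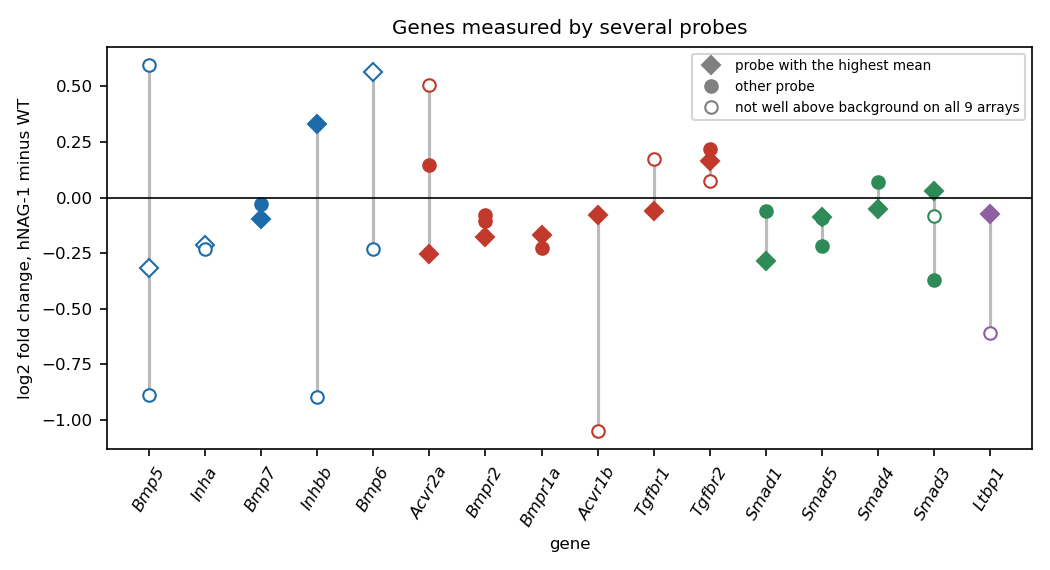
For the 16 genes measured by several probes, each symbol is the log2 fold change of a probe, hNAG-1 minus WT, a diamond for the probe with the highest mean and open symbols for probes not well above background on all 9 arrays. Acvr1b and Inhbb span the widest distance between a filled and an open symbol, -0.080 to -1.05 and 0.33 to -0.90.

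For 16 of the 39 genes several probes could be set side by side. In 9 of these genes at least 2 probes were well above background on all arrays, and in 3 of the 9, Acvr2a, Smad3 and Smad4, such probes gave opposite signs. None of the probes in those 3 genes had an unadjusted p under 0.05. In the other 6, Bmp7, Bmpr1a, Bmpr2, Tgfbr2, Smad1 and Smad5, such probes had the same sign. The second Acvr2a probe read 36.3 to 46.0 in WT and 42.6 to 48.6 in hNAG-1 dams, a log2 fold change of 0.15 against -0.26, and the second Smad3 probe gave -0.37 against 0.029.

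Acvr1b, a type I receptor for activins, and Inhbb were chosen after their values were seen, as the genes with the widest distance between a probe well above background on all 9 arrays and one that was not. Genes with no probe well above background on all arrays, such as Bmp5, were not considered. The first 30 bases of both probes of each gene, 5′ to 3′, are shown because the probes read different stretches of the gene. For Acvr1b they lie at mm7 chr15:101199369-101199428 and chr15:101196853-101196910 on the plus strand, and for Inhbb at chr1:119276025-119276084 and chr1:119278359-119278418 on the minus strand.
Acvr1b, A_52_P373893: gtacaatttattagaaaggactgtaaaata
Acvr1b, A_51_P402391: actcccgttgggtttgagacagacactttt
Inhbb, A_51_P325904: cataataacttaaaaccaaagaattttccc
Inhbb, A_52_P152847: agaagaaggtggacctgaaacgtagcggct

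The brighter Acvr1b probe, A_52_P373893, ranged from 1858 to 2575 in WT and 1632 to 2423 in hNAG-1 dams, a log2 fold change of -0.080. The other, A_51_P402391, read 38.8, 32.2, 68.6 and 175 on WT 1 to 4 and 32.0, 25.8, 25.2, 22.3 and 52.5 on hNAG-1 1 to 5. WT 4 was by far its highest array, and only 2 of the 5 hNAG-1 arrays were well above background, so its log2 fold change of -1.05 is a description with no test. The second Inhbb probe, A_52_P152847, read 140.2, 61.0, 76.4 and 88.4 on WT 1 to 4 and 71.3, 19.3, 36.6, 36.0 and 123 on hNAG-1 1 to 5. Its highest arrays, WT 1 and hNAG-1 5, were among the lower ones by the brighter probe, and its log2 fold change was -0.90 (exact permutation test, two-sided p = 0.151). It turned to 0.72 with slide as a block and was -1.25 without hNAG-1 5, where the unadjusted p was under 0.05 in limma. Which probe follows the Inhbb or Acvr1b transcript was not tested.

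**Figure D5:**
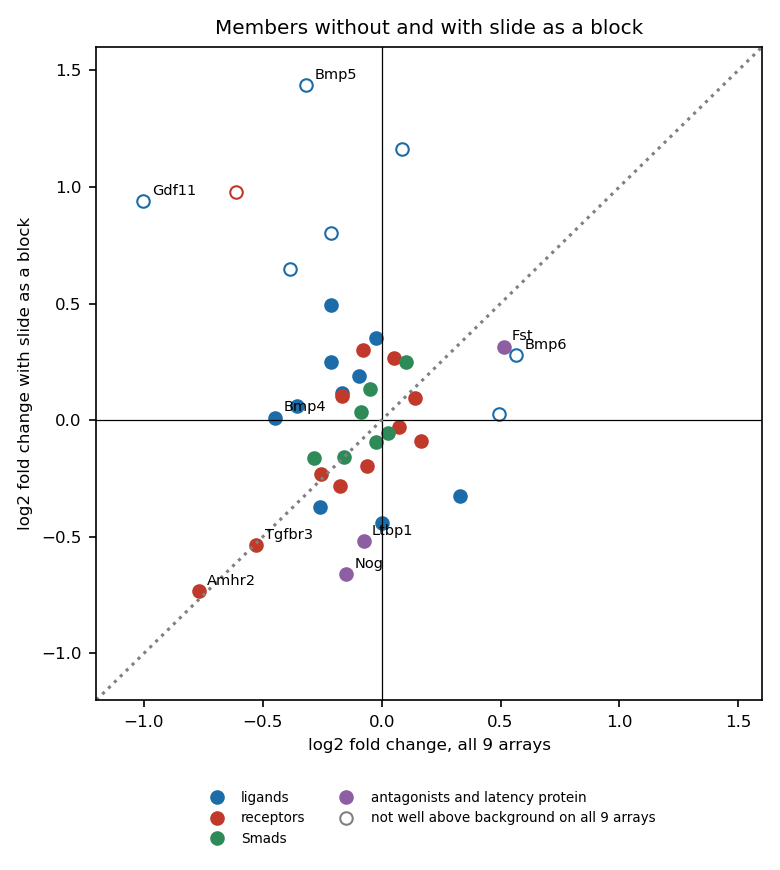
Each point is a gene, with its log2 fold change over all 9 arrays on the horizontal axis and that with slide as a block on the vertical axis, and the dotted line marks equal values. Amhr2 and Tgfbr3 lie near the line below 0, and Gdf11 and Bmp5, open because they were not well above background on all arrays, lie far above it.

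With slide as a block, the genotype difference comes from slide 3 alone, where hNAG-1 5 is set against WT 2 to 4. In that fit limma gave 1 of the 39 genes, Amhr2, an unadjusted p under 0.05, as it did 7.4% of all gene names. With the block 23 of the 39 genes (59.0%) lay higher in hNAG-1 dams, beside 68.6% of all gene names, and 12 without it. Counted against the median of all probes in the fit with the block, 24 of the 39 were lower. Without hNAG-1 5, the only transgenic dam on slide 3, the unadjusted p was under 0.05 for 6 of the 39 genes, all lower, and for 14.9% of all gene names, and 91.9% of all probes past it were lower. Of the 6 genes, Bmp2, Bmpr1b and Gdf11 were well above background on 1 or 2 of the 9 arrays, and the other 3 were among the 31 detected on all. The direction of the genes as a whole also followed the scaling. Of the 39 genes, 27 were lower in hNAG-1 here, 34 without scaling, 20 with normexp background correction, 21 with quantile normalization and 11 with median scaling. Counted against the median of all probes in the same setting, 27, 27, 25, 23 and 27 were lower.

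The arrays themselves differed for the 31 genes detected throughout. The mean score over them, in log2 units around each gene's mean, was 0.013, -0.011, 0.034 and 0.20 on WT 1 to 4 and -0.065, -0.17, 0.20, -0.21 and 0.011 on hNAG-1 1 to 5. The highest and the lowest score were both from hNAG-1 dams. Of these genes, 9 had their highest value on WT 1 and 8 on hNAG-1 3, and 8 had their lowest on hNAG-1 2.

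Other genes of the pathway were taken from 5 lists, of which 60 of 61 genes were matched and Gfral was not. In limma 4 of the 60 had an unadjusted p under 0.05, 1 higher and 3 lower, and 0 passed after adjustment. That is 6.67% of them, close to the 5.8% of all gene names. All 4 were ligands outside the 39 genes, and their values are given as a description. The mouse gene Gdf15, homologous to the transgene, had scaled intensities of 86.8, 154, 212 and 139.6 on WT 1 to 4 and 63.8, 49.9, 79.7, 94.1 and 106 on hNAG-1 1 to 5. WT 1 lay among the hNAG-1 arrays and the other WT arrays above them, and the log2 fold change was -0.89 (95% interval -1.57 to -0.21; exact permutation test, two-sided p = 0.0397) and -0.64 with slide as a block.

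Bmp3, a BMP that antagonizes other BMPs, had scaled intensities of 206, 168, 205 and 259 on WT 1 to 4 and 162, 113, 139.8, 116 and 158 on hNAG-1 1 to 5. The genotypes did not overlap, and the log2 fold change was -0.60 (95% interval -1.02 to -0.19; exact permutation test, two-sided p = 0.00794). With slide as a block it was -0.40 and had an unadjusted p over 0.05 in limma. Lefty1, an inhibitor of Nodal, had scaled intensities of 288, 365, 542 and 424 on WT 1 to 4 and 576, 595, 494, 637 and 471 on hNAG-1 1 to 5. WT 3 lay among the hNAG-1 arrays, and the log2 fold change was 0.48 (95% interval 0.028 to 0.94; exact permutation test, two-sided p = 0.0397) and 0.10 with slide as a block. The unadjusted p of Lefty1 in limma or the methods' test was under 0.05 in 9 of 19 alternatives. That of Gdf15 and that of Bmp3 were each under 0.05 in 16 of 19. Lefty2 was well above background on 3 WT arrays and on no hNAG-1 array, with means of 24.8 and 12.4, both near the lowest intensities read as well above background, 14.8 to 32.6, so no fold change is given.

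Downstream of the Smads, the target genes did not separate the genotypes. The 9 TGF-beta and activin targets reported had log2 fold changes above 0, as did all markers of 3 of the cell types. For none of the targets was the unadjusted p under 0.05 in limma, and they had a median log2 fold change of 0.16 that was -0.24 with slide as a block. Ctgf, a matricellular protein, gave 0.051 (95% interval -1.07 to 1.17). The 9 BMP targets had a median of 0.071, or -0.17 with the block, and again 0 with an unadjusted p under 0.05. Id1 and Id3, which block basic helix-loop-helix factors, gave 0.078 (95% interval -0.32 to 0.48) and 0.0021 (95% interval -0.58 to 0.58).

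The 17 extracellular regulators and co-receptors and the 9 intracellular regulators had medians of -0.024 and -0.080, with 0 past an unadjusted p of 0.05 in limma. Ret, the co-receptor of NAG-1, and Smad9, the other Smad of the BMP branch, were not well above background on any array.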

How the data were processed

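Mammary gland RNA of 4 WT and 5 hNAG-1 dams was labeled with Cy3 and read on Agilent 4x44 whole mouse genome arrays. The authors deposited, per the file headers, the output of Feature Extraction version 9.5.3.1 (9.5 in the submitters' processing notes), with a background-subtracted intensity for each feature and other flags for features well above background, saturated or outlying. The values were not scaled between arrays, and the deposited series table held the same intensities. The paper's methods name a test of genotype in OmicSoft Array Studio, with limits on fold (1.5) and intensity (65), and its text names no normalization.

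Here control features were left out, the 75th percentile of every array was set equal, features of a probe were averaged, and log2 was taken. Genotypes were compared with limma version 3.58.1 (lmFit and eBayes) in R version 4.3.3, two-sided, 7 residual degrees of freedom, Benjamini-Hochberg over 41174 probes. Single genes also had exact permutation tests over all splits into 4 and 5. Precision is limited by the number of arrays. The scripts were tested on simulated data.

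Groups came from the labels. The 39 genes, the pathway and marker lists and the alternatives were chosen with earlier results of these data known. Values on every array are given for genes with an unadjusted p under 0.05 or no overlap, for the largest rise and fall of each class among genes well above background on all arrays of a genotype, for Gdf15, pathway genes with an unadjusted p under 0.05, Ctgf, Id1 and Id3 (the last 3 as fold changes, Lefty2 as means). Of the TGF-beta and activin targets, 1 gene is not reported here and is left out of the counts. Tgfb1, Tgfb3, Inhbb and Acvr1b were added after their values were seen. Probe coordinates are those of the array design on build mm7, whose gene models were not used here, so exon and UTR positions are not given.

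Alternatives were normexp background correction (offset 50), quantile, median or no scaling, dim probes or outlier features left out, the methods' test with and without its limits, slide as a block, slide 3 alone, each array left out, a replicate block and the mean over the probes of a gene.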

Additional observations from a re-analysis of the deposited data

Results flagged for a closer look

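In 92 groups of 4 or 5 arrays over 46 genes, 5 had an array far from the others of its genotype by Dixon's 95% limit, and chance gives about 1 in 20. Gdf9 read 104 on hNAG-1 5 and 65.7 to 72.4 on the other hNAG-1 arrays. Tgfb3 read 21617 on WT 4 and 8779 to 10014 on the other WT arrays. Smad4 read 6238 on WT 1 and 5435 to 5539 on the other WT arrays. Id1 was low on WT 1 at 803, against 1079.8 to 1148 in the rest of WT, and on hNAG-1 5 at 819, against 1102 to 1217 in the rest of hNAG-1. Without the outlying array the log2 fold change was -0.15 for Gdf9, 0.094 for Tgfb3 and -0.0055 for Smad4, and none of the 3 had an unadjusted p under 0.05 in limma.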

How the results depend on the processing

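Amhr2 had an unadjusted p under 0.05 in limma or the methods' test under 19 of 20 alternatives, with log2 fold changes of -0.92 to -0.55. The exception was slide 3 alone, with 1 hNAG-1 array assumed to vary like the WT arrays and an unadjusted p over 0.05. Tgfbr3 had it under 9 of 20, with -0.70 to -0.17. Of the 39 genes, 7 (17.9%) kept their direction under every alternative that gave them a value (19 for Inhba, 20 for the others), beside 30.5% of all gene names. An unadjusted p under 0.05 under at least 1 alternative was found for 13 (33.3%), beside 32.1% of all gene names, and 0 of the 39 passed the adjusted threshold in any. The number of genes with an unadjusted p under 0.05 was 2 here, 4 with quantile normalization, median scaling or a replicate block, and 1 without scaling, with slide as a block or under the methods' limits. With an array left out it was 1 to 6, with 6 without hNAG-1 5 (Amhr2, Bmp2, Bmp4, Bmpr1b, Gdf11 and Tgfbr3, where 14.9% of all gene names passed), 4 without WT 2, 3 without WT 4 or hNAG-1 1, and 1 without WT 3 or hNAG-1 2. Over all probes the count was 2307 here, 1058 with normexp, 3686 with median scaling, 3723 on slide 3 alone, 5447 with the replicate block, 507 under the methods' limits, and 1163 (without hNAG-1 2) to 5924 (without hNAG-1 5) with an array left out. The adjusted threshold was passed by 1 probe here, 138 with slide as a block and 215 without hNAG-1 5.

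The median log2 fold change of all 39 genes was 0.12 with median scaling, -0.24 without scaling, 0.061 with slide as a block or slide 3 alone, and -0.15 to -0.054 with an array left out. The ligand median was 0.25 with slide as a block or slide 3 alone and -0.32 to -0.053 with an array left out. The receptor median was 0.092 with median scaling and -0.27 without scaling (-0.23 to -0.062 with an array left out), and the Smad median 0.17 with median scaling (-0.11 to -0.023). The median of the 3 modulators was -0.52 with slide as a block or slide 3 alone (-0.20 to 0.018 with an array left out), and above 0 with normexp (0.078), quantile normalization (0.12), median scaling (0.14) and the replicate block (0.018). The pathway count of 4 was 2 on slide 3 alone, 7 with the replicate block and 3 to 8 with an array left out, 8 without hNAG-1 5. The median over all probes was -0.018 here, 0.19 with slide as a block, -0.16 without scaling, 0.034 with quantile normalization and 0.20 with median scaling. Reversed log2 fold changes are listed only for genes that the rule above named. With slide as a block or slide 3 alone they were those of Bmp4 (0.010), Tgfbr2 (-0.088), Ctgf (-0.51), Id1 (-0.45) and Id3 (-0.54). Without scaling they were those of Smad2 (-0.046), Ctgf (-0.096), Id1 (-0.069) and Id3 (-0.14). With quantile normalization they were those of Nog (0.029), Ctgf (-0.027) and Id3 (-0.028), and with median scaling that of Nog (0.068). Many other genes of the 39 also reversed with slide as a block. Among them were Gdf5 (0.49), Inhbb (-0.32) and Acvr1b (0.30), and, near background, Gdf11 (0.94) and Bmp2 (0.65). With an array left out Ctgf ranged from -0.26 to 0.43, Id1 from -0.042 to 0.18 and Id3 from -0.18 to 0.25. No scaling and median scaling move the log2 fold change of every gene alike, down and up, by construction. For the others the cause was not tested. The arrays share only replicate numbers, with correlations of same-numbered deviations of 0.0795, -0.174, -0.0575 and -0.208, and the replicate block leaves out hNAG-1 5, which has no WT partner. Low signal limits the 8 genes not well above background throughout.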
